A study of Mus musculus with 12 samples.

Results

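The 10 genes described here encode proteins through which an antigen-presenting cell stimulates, restrains or holds a lymphocyte. They are Cd80, Cd86 and Icosl (costimulators of the B7 family), Cd40 and Cd83, the checkpoint ligands Cd274, Pdcd1lg2 and Cd276, the checkpoint receptor Havcr2, and the adhesion ligand Icam1. They were chosen by name, and each was found in the deposited count table by its Ensembl gene identifier, matched to GENCODE mouse symbols with the version ignored. All 10 were among the 55421 genes of the table, and all 10 passed the filter on low counts that left 18842 genes to test.

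A T cell that recognises a peptide on an MHC class II molecule needs a further signal, which CD80 and CD86 give through CD28. Both ligands are also bound by CTLA-4, which holds the T cell back, and PD-L1 (from Cd274) and PD-L2 (from Pdcd1lg2) restrain it through PD-1. Microglia, the resident macrophages of the brain, carry few of these ligands at rest and are known to raise several of them when activated.

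Microglia were sorted from mouse brain by their fluorescence. They were then kept in culture without oxygen and glucose (OGD, for oxygen-glucose deprivation), which stands in for the loss of blood supply. Control mice carried the Cx3cr1EGFP reporter (here WT). The knockout mice carried the same reporter together with Slc2a5-/- (here KO), a knockout of the gene for the fructose transporter GLUT5. Every library was taken after 6 h of OGD, either at its end (WT and KO) or after 24 h of recovery (WT_recovery and KO_recovery), with 3 libraries in each of the 4 groups. No library without OGD was analysed here. All mice were labelled male, with an age of 35 to 40 days in the characteristics and 30 to 45 days in the extraction protocol. The title and library name of WT_recovery replicate 1 placed it after recovery, its treatment field did not, and it was grouped by its title. Whether the replicates were separate animals or cultures was not stated in the labels. The p-values therefore measure the spread among these libraries alone, and that spread may be technical. In such bulk libraries, fewer cells of a type and less RNA per cell cannot be told apart.

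Total counts lay between 9885259 and 45347118, with all 6 recovery libraries below the 6 taken at the end of OGD. The mitochondrial share of counts was 4.20% to 5.75% at the end of OGD and 4.72% to 18.4% after recovery, the highest in WT_recovery replicate 1. Slc2a5, the gene knocked out, had 45, 40 and 58 counts in WT, 17, 4 and 17 in KO, and 0 to 2 in every recovery library. It was thus lower in KO at the end of OGD but not absent, and it checked the genotype labels at that time only. Xist, an RNA made from the inactive X chromosome, had 0, 3 and 0 counts in WT_recovery and 4101 to 10232 in the other 9 libraries, although all were labelled male. In each comparison with WT_recovery, the group and whatever set Xist cannot be told apart. Of 14 microglial markers, 13 had counts in each of WT, WT_recovery and KO_recovery and 14 in KO, with summed levels of 2160 to 2230, 1950 to 2260, 2140 to 2370 and 2270 to 2410 CPM, which are counts scaled to a common library size. Among the markers that define microglia, Trem2 averaged 325 CPM or more in every group, whereas Siglech was at 0 in all groups but KO, where it had 7 counts, and Tmem119 averaged 0.118 CPM in WT and 2.22 CPM in WT_recovery.

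Recovery changed most of the 10 genes, and it moved them both ways. In WT, 4 of the 10 were higher after recovery than at the end of OGD (Cd80, Pdcd1lg2, Icam1 and Cd276) and 3 were lower (Cd86, Cd274 and Cd83), at an adjusted p below 0.05 in edgeR's quasi-likelihood test. Of all genes tested in that comparison, 26.9% were called higher and 29.9% lower. In KO, 5 were higher (the same 4 genes and Icosl) and 2 were lower (Cd274 and Cd83), where 29.3% of all genes were called higher and 29.6% lower. The libraries of both times did not overlap for 7 of the 10 genes in either genotype, against 67.1% of all genes in WT and 61.2% in KO. These shares lay near the background, so the counts alone did not set the 10 genes apart from the rest. The median log2 change of the 10 was 0.18 in WT and 0.58 in KO, where the median over all genes tested was -0.03 and 0.00.

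The genotypes differed in fewer of the 10 genes. At the end of OGD, none was called higher in KO than in WT, where 0.966% of all genes were, and 1 was called lower (Icosl), where 6.52% were. The libraries of the genotypes did not overlap for 3 of the 10 (Pdcd1lg2, Icosl and Cd276), against 30.4% of all genes. After recovery, 2 were called higher in KO (Cd80 and Cd86), where 10.1% of all genes were, and none was called lower, where 12% were. The libraries did not overlap for 3 of the 10 (Cd86, Cd274 and Havcr2), against 33.5% of all genes. The count after recovery turned on single libraries: it was 5 of 10 without KO_recovery replicate 3, 4 without WT_recovery replicate 1, and 1 without WT_recovery replicate 2, without WT_recovery replicate 3 or without KO_recovery replicate 1.

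The recovery change itself was compared between genotypes by an interaction term, the change in KO less that in WT. None of the 10 genes was called, by edgeR or by DESeq2, where edgeR called 2.89% of all genes higher and 2.36% lower. An unadjusted p below 0.05 was found for 3 of the 10 (Cd80, Cd86 and Icam1), by edgeR and by DESeq2. Without KO_recovery replicate 3, 4 of the 10 were called in this term (Cd80, Cd86, Cd83 and Icam1), all with a larger value in KO, and without WT_recovery replicate 1 only Cd80 was. The comparisons share libraries: each recovery comparison uses the same OGD and recovery libraries as the genotype comparisons, so their results are given side by side and not as support for one another.

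**Figure D1:**
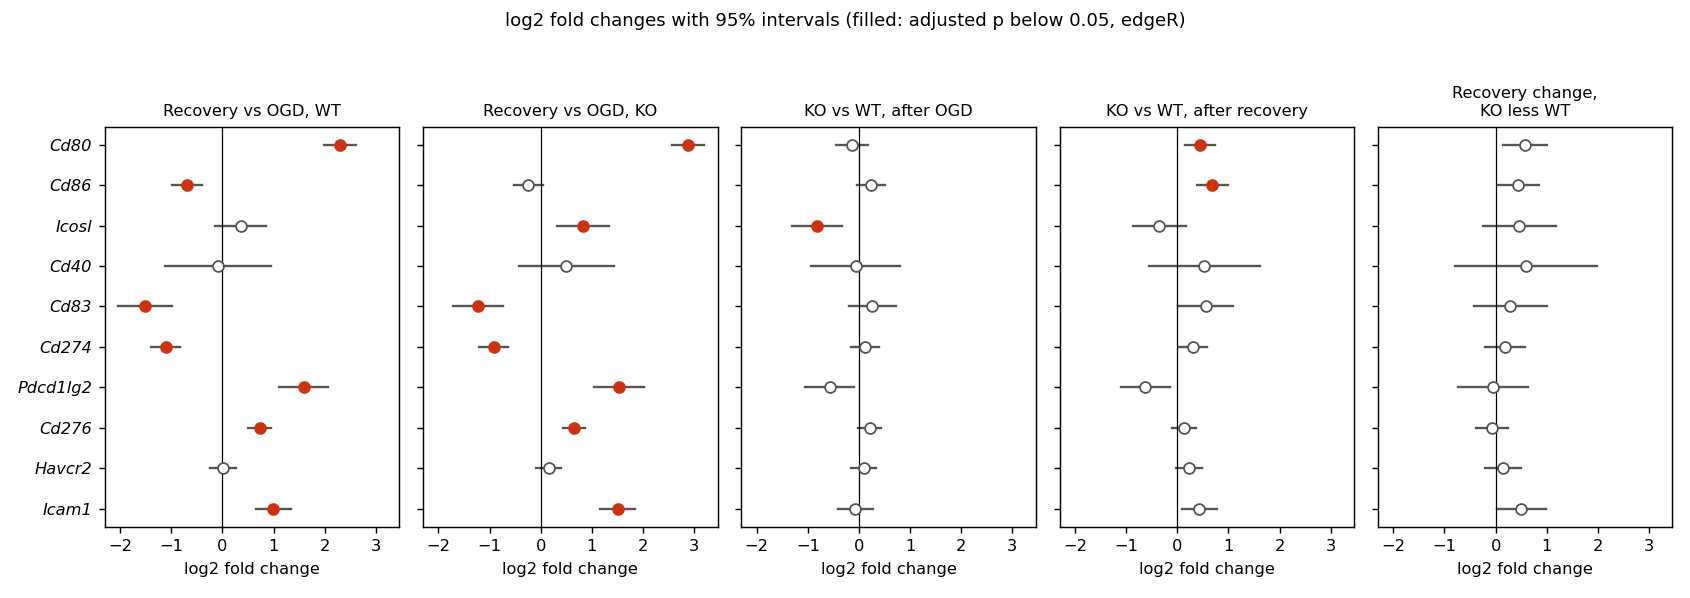
log2 fold changes (points) with 95% intervals (lines) of the 10 genes in 5 comparisons of 12 libraries, filled red where edgeR's adjusted p was below 0.05. Both recovery panels have filled points on either side of 0, from -1.52 for Cd83 to 2.88 for Cd80, and the right-hand panel has none.

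Between genes, levels were compared per length, as CPM per kilobase of exon (FPKM). In WT at the end of OGD, Cd274 was the highest of the 10 at 122 ± 5.92 FPKM (SD, n = 3). It was followed by Cd83 at 15.4 ± 1.84, Havcr2 at 11.5 ± 0.696, Icam1 at 11 ± 0.887 and Cd86 at 8.89 ± 0.383, of which Havcr2 and Icam1 differed by less than their spread. Cd276 was at 5.60 ± 0.358, Cd80 at 1.70 ± 0.0947, Icosl at 1.48 ± 0.109 and Pdcd1lg2 at 1.11 ± 0.226 FPKM, and Cd40 was the lowest at 0.216 ± 0.0736. After recovery in WT the order had changed: Cd274 was still the highest at 56.4 ± 0.710 FPKM, Icam1 was next at 22.1 ± 4.15, Cd80 (8.47 ± 1.90) was above Cd86 (5.52 ± 0.0319), and Cd40 was the lowest at 0.186 ± 0.106.

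**Figure D2:**
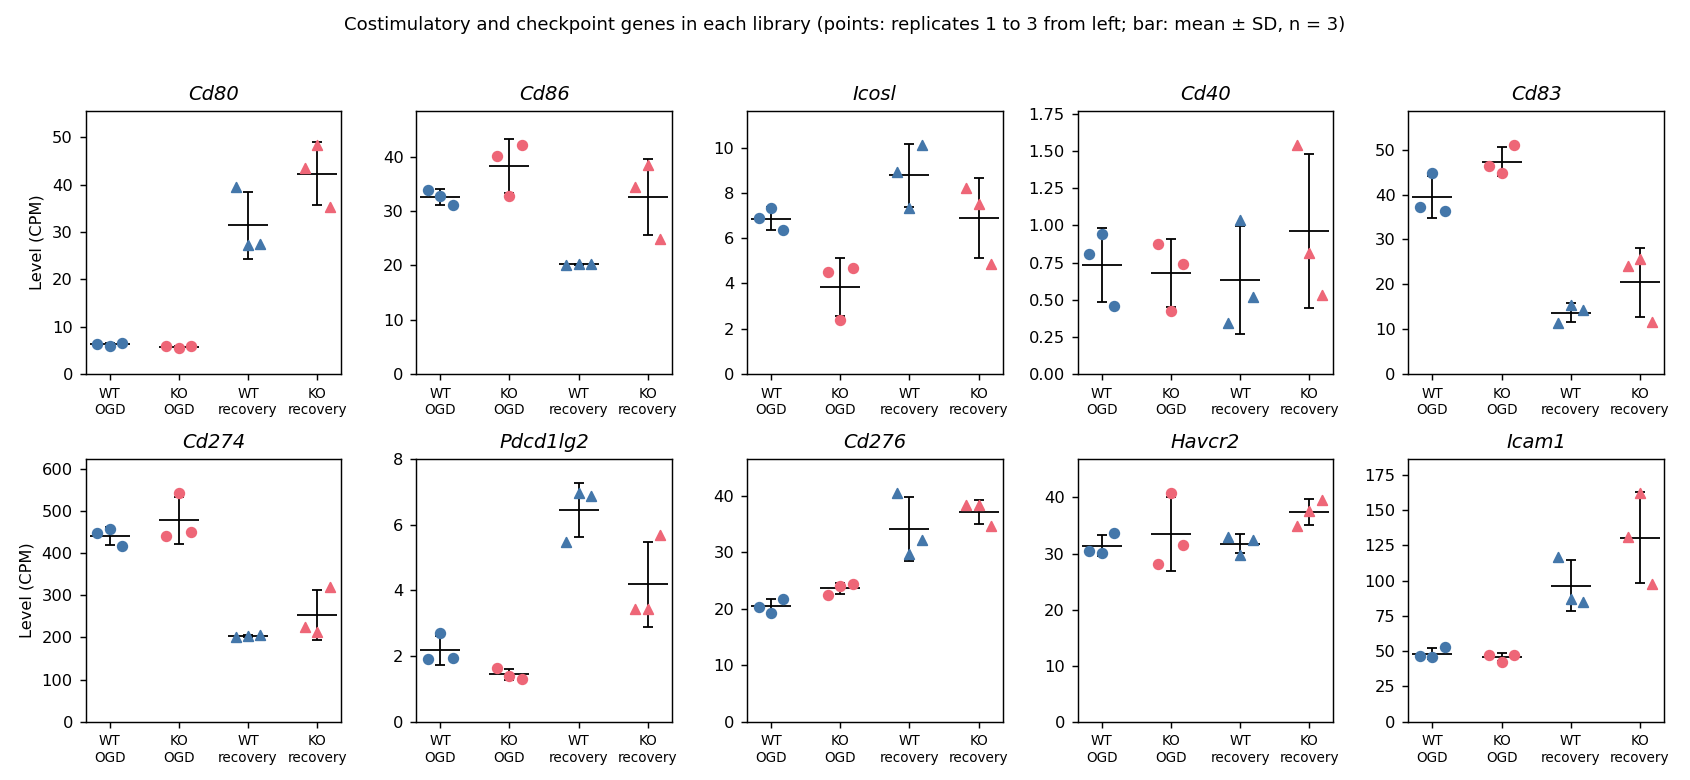
Level (CPM, axis from 0) of each of the 10 genes in each of the 12 libraries, with WT in blue, KO in red, circles at the end of OGD, triangles after recovery, and the mean ± SD of 3 libraries as a black bar. The Cd80 points sit between 5.42 and 6.59 at the end of OGD and between 27.2 and 48.3 after recovery, while those of Cd274 go from 416 to 543 down to 202 to 321.

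Cd80 and Cd86 encode the paired ligands of CD28 and CTLA-4, of which CD80 binds both receptors more tightly. Cd80 (ENSMUSG00000075122.5, chr16:38455561-38496335, plus strand, GRCm38) had 6.37, 5.90 and 6.59 CPM in WT and 5.82, 5.42 and 5.91 CPM in KO. After recovery it had 39.5, 27.2 and 27.4 CPM in WT_recovery and 43.4, 48.3 and 35.2 CPM in KO_recovery. Every recovery library was above every library taken at the end of OGD. Cd80 rose 4.93-fold in WT (log2 change 2.30 ± 0.15, SE; adjusted p = 8.02e-09) and 7.36-fold in KO (2.88 ± 0.15; adjusted p = 6.85e-10), the largest changes among the 10 genes in either genotype.

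Between genotypes, Cd80 differed by a log2 change of -0.14 ± 0.15 at the end of OGD (adjusted p = 0.718). After recovery it was 1.36-fold higher in KO (log2 change 0.44 ± 0.14, adjusted p = 0.0328), although the libraries overlapped: WT_recovery replicate 1 lay above KO_recovery replicate 3. This call was lost in 5 of 19 alternatives, among them the fit of the 6 recovery libraries alone and the fits without WT_recovery replicate 2 or 3 or without KO_recovery replicate 1 or 2, with adjusted p from 0.00165 to 0.162 over all 19. The excess of the recovery change in KO was 0.58 (95% interval 0.14 to 1.01, adjusted p = 0.118).

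The promoter of Cd80 is shown because it had the largest change. It is taken from RefSeq (GRCm38.p6) as the 250 bases before and 50 after the RefSeq start, at chr16:38458683-38458982 on the plus strand, downstream of the GENCODE gene start above. Positions are counted from 0 at the RefSeq start, and capitals mark matches on either strand to the motifs searched: kappaB (by name), GAS (TTCNNNGAA), the ISRE core (GAAA followed, after any 2 bases, by GAAA), AP-1 (TGANTCA), the hypoxia response element (ACGTG or GCGTG) and the TATA box (TATAAA). Of 32851 RefSeq windows of the same length, kappaB was in 4.51%, GAS in 8.30%, the ISRE core in 3.44%, AP-1 in 7.81%, the hypoxia response element in 43.8% and the TATA box in 13.6%. The Cd80 window held an AP-1 match from -42 to -36 and, on the minus strand, a TATA box match from 4 to 9. A match is a description of these letters and not a measured site.
Cd80: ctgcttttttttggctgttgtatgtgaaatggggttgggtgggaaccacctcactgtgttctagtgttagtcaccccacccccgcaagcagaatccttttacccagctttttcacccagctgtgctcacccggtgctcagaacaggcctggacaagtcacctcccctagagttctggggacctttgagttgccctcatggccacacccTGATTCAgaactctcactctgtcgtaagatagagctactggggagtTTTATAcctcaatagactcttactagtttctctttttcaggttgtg

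Cd86 went the other way from Cd80 in WT. Cd86 (ENSMUSG00000022901.13, chr16:36603869-36666081, minus strand) had 33.9, 32.7 and 31.1 CPM in WT and 40.1, 32.7 and 42.1 CPM in KO. After recovery it had 20.1, 20.3 and 20.2 CPM in WT_recovery and 34.4, 38.5 and 24.8 CPM in KO_recovery. All 3 WT_recovery libraries were below the other 9, and the KO_recovery libraries overlapped with both groups taken at the end of OGD. Cd86 fell by 0.69 ± 0.14 on the log2 scale with recovery in WT (adjusted p = 0.000548). In KO its log2 change was -0.24 ± 0.13 (adjusted p = 0.127), a value that was called in 3 of 19 alternatives: without KO replicate 2, without KO_recovery replicate 2, and with no filter on low counts.

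Cd86 was 1.61-fold higher in KO than in WT after recovery (log2 change 0.68 ± 0.14, adjusted p = 0.00292), with no overlap of libraries, and this call held in all 19 alternatives. At the end of OGD the genotype difference was 0.24 ± 0.13 (adjusted p = 0.364). The difference between the genotypes' recovery changes was 0.45 (95% interval 0.04 to 0.85, adjusted p = 0.19). It was 0.61 and called without KO_recovery replicate 3, in which Cd86 was the lowest of its group.

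The ratio of the paired ligands, Cd80 over Cd86 per length, put both changes into one number for each library. It was 0.186, 0.178 and 0.209 in WT and 0.144, 0.164 and 0.139 in KO, so Cd86 had the more abundant transcript in every library at the end of OGD. After recovery it was 1.94, 1.32 and 1.34 in WT_recovery and 1.25, 1.24 and 1.40 in KO_recovery, so Cd80 was the more abundant in all 6. The ratio of each KO library was below that of each WT library at the end of OGD, and the genotypes overlapped after recovery.

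Icosl encodes the ligand of ICOS, a costimulatory receptor of activated T cells. Icosl (ENSMUSG00000000732.9, chr10:78069302-78083913, plus strand) had 6.88, 7.35 and 6.34 CPM in WT and 4.50, 2.37 and 4.68 CPM in KO. In the recovery libraries it had 8.91, 7.32 and 10.1 CPM in WT_recovery and 8.23, 7.51 and 4.87 CPM in KO_recovery. All 3 KO libraries were below the other 9.

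Icosl was 0.567 times as high in KO as in WT at the end of OGD (log2 change -0.82 ± 0.23, adjusted p = 0.0405). This call was lost in 9 of 19 alternatives: with DESeq2's size factors, with counts thinned to equal depth, and without any 1 of WT replicates 1, 2 and 3, KO replicates 1 and 2, or WT_recovery replicates 1 and 3. Adjusted p ranged from 8.81e-05 to 0.194 over the 19. With recovery Icosl rose in KO (log2 change 0.82 ± 0.24, adjusted p = 0.00855; 0.0599 without KO_recovery replicate 1), and its change in WT was 0.35 ± 0.23 (adjusted p = 0.207). These recovery changes were not shown to differ between genotypes (interaction 0.47, 95% interval -0.24 to 1.18, adjusted p = 0.468). The genotype difference after recovery was -0.35 ± 0.24 (adjusted p = 0.327).

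Cd40 encodes the receptor through which CD40 ligand on helper T cells activates an antigen-presenting cell. Cd40 (ENSMUSG00000017652.16, chr2:165055627-165072948, plus strand) was near the floor of the measurement, with 33, 32 and 22 counts in WT and 37, 13 and 27 in KO. The shallower recovery libraries held 3, 17 and 7 counts in WT_recovery and 31, 10 and 10 in KO_recovery. Levels lay between 0.343 and 1.54 CPM in the 12 libraries, and all 4 groups overlapped. No comparison called Cd40, and its intervals were wide: the 95% interval of the recovery change ran from -1.13 to 0.95 in WT and from -0.43 to 1.44 in KO, and that of the genotype difference from -0.94 to 0.81 at the end of OGD and from -0.55 to 1.61 after recovery. Differences within these intervals were not excluded by these libraries.

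Cd83 encodes a surface protein used as a marker of mature dendritic cells and known to keep CD86 and MHC class II on the cell surface. Cd83 (ENSMUSG00000015396.4, chr13:43784775-43803132, plus strand) had 37.3, 44.9 and 36.3 CPM in WT and 46.3, 44.8 and 51.0 CPM in KO. With recovery its levels were 11.3, 15.4 and 14.2 CPM in WT_recovery and 24.1, 25.6 and 11.5 CPM in KO_recovery. All 6 recovery libraries were below the 6 taken at the end of OGD, and KO_recovery replicate 3 lay among the WT_recovery libraries while the other two lay above them.

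Cd83 fell by 1.52 ± 0.24 on the log2 scale in WT (adjusted p = 0.000186) and by 1.23 ± 0.23 in KO (adjusted p = 0.000584). The genotype difference after recovery was 0.55 ± 0.25 (adjusted p = 0.136). Without KO_recovery replicate 3 it was 0.84 and called. At the end of OGD the difference was 0.26 ± 0.21 (adjusted p = 0.599).

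Cd274 and Pdcd1lg2 encode PD-L1 and PD-L2, the ligands of PD-1, and lie near each other on the plus strand of chromosome 19. Cd274 (ENSMUSG00000016496.7, chr19:29367455-29388095) had 447, 457 and 416 CPM in WT and 441, 543 and 451 CPM in KO. After recovery it had 202, 204 and 207 CPM in WT_recovery and 224, 213 and 321 CPM in KO_recovery. No recovery library reached the level of any library taken at the end of OGD. Cd274 fell by 1.11 ± 0.13 on the log2 scale in WT (adjusted p = 5.24e-06) and by 0.92 ± 0.13 in KO (adjusted p = 2.64e-05), and it remained the highest of the 10 genes per length in every group.

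The genotype difference of Cd274 was 0.12 ± 0.13 at the end of OGD (adjusted p = 0.717) and 0.31 ± 0.13 after recovery (adjusted p = 0.11). The KO_recovery libraries all lay above the WT_recovery libraries, and the difference was 0.09 without KO_recovery replicate 3 and 0.41, and called, without KO_recovery replicate 2. In the annotation, 511 exonic bases of Cd274 are shared with AC119228.1 on the opposite strand. The strand setting of the authors' counting is not given in the sources used here, so reads of the pair could not be told apart.

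Pdcd1lg2 (ENSMUSG00000016498.10, chr19:29410919-29471161) moved against its neighbour. It had 1.90, 2.69 and 1.93 CPM in WT and 1.63, 1.38 and 1.31 CPM in KO, from 42 to 93 counts a library. Its recovery levels were 5.48, 6.96 and 6.88 CPM in WT_recovery and 3.42, 3.43 and 5.68 CPM in KO_recovery. Each recovery library was above all 6 libraries taken at the end of OGD. Pdcd1lg2 rose 3.00-fold in WT (log2 change 1.58 ± 0.22, adjusted p = 2.14e-05) and 2.90-fold in KO (1.54 ± 0.23, adjusted p = 4.23e-05). These rises were not shown to differ (interaction -0.05, 95% interval -0.74 to 0.64).

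Pdcd1lg2 levels in KO were 0.670 times those in WT at the end of OGD (log2 change -0.58 ± 0.23, adjusted p = 0.17), with no overlap of libraries. After recovery they were 0.648 times those in WT (-0.63 ± 0.22, adjusted p = 0.056), and only KO_recovery replicate 3 overlapped with WT_recovery. Neither difference passed the threshold. The value after recovery was called in 5 of 19 alternatives: DESeq2, no filter on low counts, and the fits without WT_recovery replicate 1, without KO_recovery replicate 3, or without KO_recovery replicates 1 and 3 together. The last was added after the data were seen.

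The ratio of Pdcd1lg2 over Cd274 per length was 0.00786, 0.0109 and 0.00858 in WT and 0.00683, 0.00470 and 0.00538 in KO. After recovery it was 0.0501, 0.0632 and 0.0613 in WT_recovery and 0.0283, 0.0298 and 0.0327 in KO_recovery. The transcript of PD-L1 was thus the more abundant in every library, and the ratio was higher in all 6 recovery libraries. At both times every KO library had a lower ratio than every WT library. The group means were 0.0091 ± 0.00156 in WT, 0.00564 ± 0.00109 in KO, 0.0582 ± 0.00709 in WT_recovery and 0.0302 ± 0.00223 in KO_recovery (SD, n = 3).

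**Figure D3:**
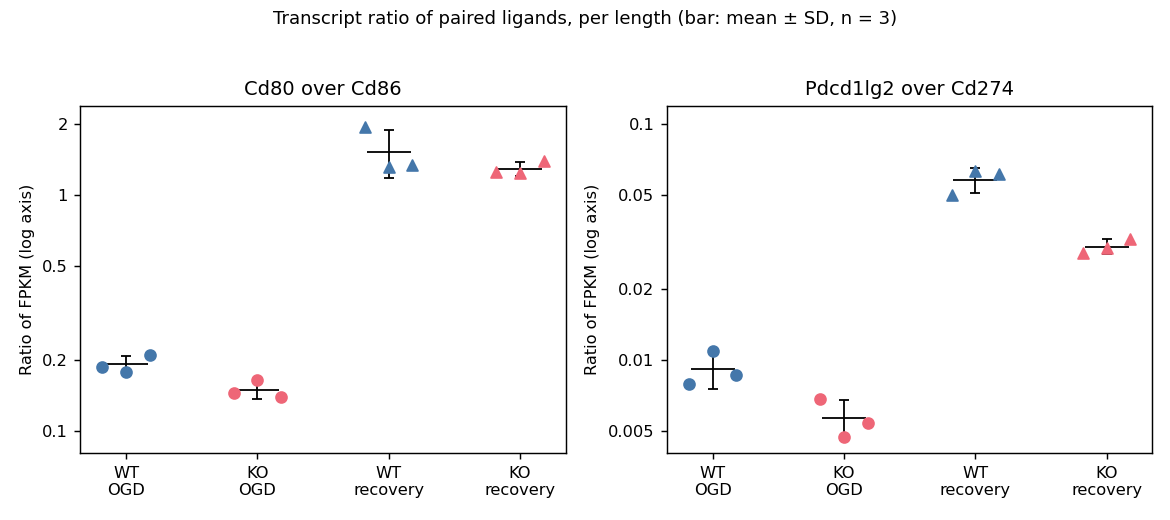
Ratio of FPKM (log axis) of Cd80 over Cd86 (left) and Pdcd1lg2 over Cd274 (right) in each library, with WT in blue, KO in red and the mean ± SD of 3 libraries as a bar. The left-hand points cross 1 between the end of OGD (0.139 to 0.209) and recovery (1.24 to 1.94), and in the right-hand panel the KO points lie below the WT points at both times.

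The promoters of this pair are shown because the genes are neighbours that changed in opposite directions. The RefSeq windows (GRCm38.p6, plus strand) are chr19:29367188-29367487 for Cd274 and chr19:29410669-29410968 for Pdcd1lg2, with capitals as above. The Cd274 window held a hypoxia response element from -201 to -197 and another, on the minus strand, from 39 to 43. The Pdcd1lg2 window held a kappaB match from -244 to -235. The windows shared none of the motifs searched, and 15 CpG sites were in that of Cd274 against 3 in that of Pdcd1lg2.
Cd274: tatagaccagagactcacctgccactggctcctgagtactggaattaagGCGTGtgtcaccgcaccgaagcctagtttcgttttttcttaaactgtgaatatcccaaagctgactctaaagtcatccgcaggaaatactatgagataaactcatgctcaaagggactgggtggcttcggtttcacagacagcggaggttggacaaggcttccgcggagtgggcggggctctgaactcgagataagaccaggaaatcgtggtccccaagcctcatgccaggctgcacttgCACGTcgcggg
Pdcd1lg2: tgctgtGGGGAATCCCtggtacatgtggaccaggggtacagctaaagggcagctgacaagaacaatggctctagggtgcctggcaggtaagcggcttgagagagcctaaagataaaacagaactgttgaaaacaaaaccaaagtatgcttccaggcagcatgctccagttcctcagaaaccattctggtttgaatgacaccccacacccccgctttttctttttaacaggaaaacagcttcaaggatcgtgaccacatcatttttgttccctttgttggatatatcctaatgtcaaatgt

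Cd276 encodes B7-H3, a B7 family member for which both stimulatory and inhibitory effects on T cells are known. Cd276 (ENSMUSG00000035914.11, chr9:58524298-58555437, minus strand) had 20.3, 19.2 and 21.8 CPM in WT and 22.5, 24.1 and 24.3 CPM in KO. Following recovery it had 40.5, 29.7 and 32.1 CPM in WT_recovery and 38.3, 38.4 and 34.6 CPM in KO_recovery. The times did not overlap in either genotype. Cd276 rose 1.65-fold in WT (log2 change 0.72 ± 0.11, adjusted p = 3.42e-05) and 1.57-fold in KO (0.65 ± 0.10, adjusted p = 7.5e-05), and the difference between these changes was -0.07 (95% interval -0.39 to 0.24).

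All 3 KO libraries were above all 3 WT libraries for Cd276 at the end of OGD, but the difference of 0.21 ± 0.10 was not called (adjusted p = 0.315). After recovery it was 0.13 ± 0.11 (adjusted p = 0.413). Its exons share 416 bases with Gm10657 on the opposite strand, so its values carry the same uncertainty as those of Cd274.

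Havcr2 encodes TIM-3, an inhibitory receptor that myeloid cells carry as well as T cells, and it had the smallest log2 recovery changes of the 10 (0.01 in WT and 0.16 in KO). Havcr2 (ENSMUSG00000020399.14, chr11:46454935-46481255, plus strand) had 30.5, 30.1 and 33.6 CPM in WT and 28.1, 40.8 and 31.5 CPM in KO. After recovery it had 33.0, 29.8 and 32.4 CPM in WT_recovery and 34.9, 37.6 and 39.5 CPM in KO_recovery. The times overlapped in both genotypes. The 95% interval of the recovery change was -0.24 to 0.26 in WT and -0.09 to 0.41 in KO on the log2 scale. After recovery all KO libraries were above all WT libraries, with a difference of 0.24 ± 0.12 that was not called (adjusted p = 0.176), and at the end of OGD the difference was 0.09 ± 0.11 (adjusted p = 0.765). Without KO replicate 2, which had the highest Havcr2 level of all, the recovery change in KO was 0.33 and the difference after recovery was called (adjusted p = 0.00688 and 0.0435).

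Icam1 encodes the ligand of the integrin LFA-1, through which leukocytes adhere to the cell that presents antigen. Icam1 (ENSMUSG00000037405.8, chr9:21015985-21028817, plus strand) had 46.3, 45.6 and 52.6 CPM in WT and 47.6, 42.3 and 47.5 CPM in KO. Its levels after recovery were 117, 87.1 and 84.9 CPM in WT_recovery and 131, 162 and 97.5 CPM in KO_recovery. All recovery libraries were above all libraries taken at the end of OGD, and the genotypes overlapped at both times. Icam1 rose 1.99-fold in WT (log2 change 1.00 ± 0.16, adjusted p = 0.000146) and 2.83-fold in KO (1.5 ± 0.16, adjusted p = 3.38e-06).

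The genotype difference of Icam1 was -0.07 ± 0.16 at the end of OGD (adjusted p = 0.881) and 0.43 ± 0.16 after recovery (adjusted p = 0.0698). The latter was called in 5 of 19 alternatives, among them the fits without WT_recovery replicate 1 (0.58) and without KO_recovery replicate 3 (0.60). The excess of its recovery change in KO was 0.51 (95% interval 0.02 to 0.99, adjusted p = 0.223). Its exons share 511 bases with Gm47079 on the opposite strand, with the uncertainty given for Cd274.

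The Icam1 promoter is shown beside that of Cd80 because both genes rose with recovery in both genotypes. Its RefSeq window (GRCm38.p6, chr9:21015690-21015989, plus strand) held a hypoxia response element from -242 to -238, a GAS match from -42 to -34 and a TATA box match from 13 to 18. In total 7 of the 10 genes were matched in the RefSeq promoter table: Cd80, Cd274, Pdcd1lg2, Icosl, Icam1, Cd276 and Havcr2. None of the 7 windows held the ISRE core, and that of Icosl held none of the motifs.
Icam1: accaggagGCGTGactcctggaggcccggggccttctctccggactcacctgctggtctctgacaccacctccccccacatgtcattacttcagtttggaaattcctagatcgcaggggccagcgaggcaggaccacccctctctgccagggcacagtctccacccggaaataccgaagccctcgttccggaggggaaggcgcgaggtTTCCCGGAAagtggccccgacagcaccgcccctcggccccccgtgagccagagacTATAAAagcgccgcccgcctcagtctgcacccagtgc

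**Figure D4:**
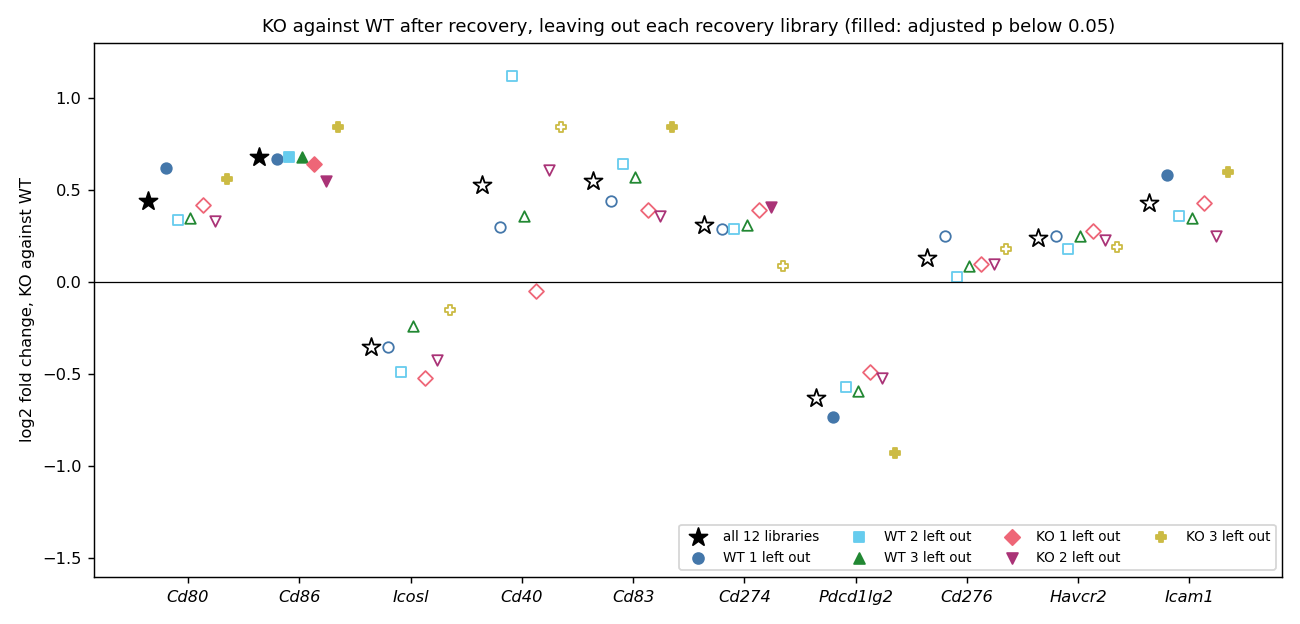
log2 fold change of KO against WT after recovery for each of the 10 genes with all 12 libraries (star) and with each of the 6 recovery libraries left out in turn, filled where edgeR's adjusted p was below 0.05. Cd86 is filled throughout, whereas Cd83 is filled only without KO_recovery replicate 3, where its value is 0.84, and Cd80 is open in 4 of the 6.

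KO_recovery replicate 3 was an extreme of its group for each of the 10 genes, where 2 of 3 libraries always are: it had the lowest level of Cd80, Cd86, Cd40, Icosl, Cd83, Icam1 and Cd276 and the highest of Cd274, Pdcd1lg2 and Havcr2. The summed level of 8 markers of fibroblasts and mural cells was 311, 18.5 and 239 CPM in KO_recovery replicates 1, 2 and 3, so it did not follow the same library alone. The mitochondrial share was 8.23%, 10.5% and 4.72% in the same order. The part of either in the members' values was not tested, apart from the fits without these libraries.

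Genes whose pattern over the 12 libraries was most like that of a member were found as those with the smallest root mean square difference of centred log2 CPM, among 11416 genes with a mean of at least 5 CPM. For Cd80 these were C3 (0.17) and Ccl9 (0.18), a complement component and a chemokine: mean C3 levels were 91.3, 81.7, 394 and 552 CPM and mean Ccl9 levels 262, 263, 1270 and 1850 CPM in WT, KO, WT_recovery and KO_recovery. For Icam1 they were Lgals1 (0.09) and Fes (0.11), for Cd276 Chid1 and 1810022K09Rik (both 0.08), and for Havcr2 Mgat5 (0.07) and Plekhm1 (0.08). Among the genes that fell, Cd274 was closest to BC048403 (0.08) and Gas2l3 (0.10), Cd83 to Fabp4 (0.19) and Phyhd1 (0.20), and Cd86 to Scpep1os (0.10), which overlaps Scpep1, and Cep89 (0.12). Pdcd1lg2 was closest to AI662270 (0.18) and Gm11427 (0.20), which overlap each other, and Icosl to Gm28042 (0.22) and Pdlim7 (0.24). Cd40, the least abundant, had no close match: the nearest were Gbp11 (0.34) and Gbp8 (0.35).

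Of 10 listed genes for receptors of the ligands and other members of the B7 family, 8 were in the table and 3 passed the filter (Cd28, Ctla4 and Vsir). Pdcd1, the receptor of both PD-1 ligands, was at 0 in all 12 libraries, and Icos averaged 0.182 CPM or less in every group. Cd28 averaged 14.8 to 22.5 CPM, Ctla4 1.88 to 2.40 CPM and Vsir 218 to 334 CPM over the 4 groups. Vsir, which encodes the checkpoint protein VISTA, rose in both genotypes, by 0.53 ± 0.09 in WT (adjusted p = 8.97e-05) and by 0.48 ± 0.09 in KO (adjusted p = 0.000202) on the log2 scale. Cd28 and Ctla4 were not called in any comparison (none of the 3 was called between genotypes).

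TNF-type costimulators act beside CD40, and 7 of the 12 listed passed the filter. With recovery 5 were higher and 1 lower in WT (26.9% and 29.9% of all genes), and 4 were higher and 1 lower in KO (29.3% and 29.6% of all genes). Their median log2 change was 0.75 in WT and 0.39 in KO, against -0.03 and 0.00 over all genes. Tnfsf14, which encodes the T cell costimulator LIGHT, rose from 0.822 to 9.24 CPM in WT and from 1.21 to 12 CPM in KO (log2 changes 3.46 ± 0.26 and 3.28 ± 0.25). Between genotypes 1 was lower in KO at the end of OGD, where 6.52% of all genes were (Tnfsf8, at 0.505 against 1.77 CPM). After recovery 2 were higher and 2 lower, where 10.1% and 12% of all genes were. Tnfsf9, the 4-1BB ligand, was higher in KO_recovery than in WT_recovery (5.15 against 2.63 CPM, adjusted p = 0.00148) and its receptor gene Tnfrsf9 was lower (0.212 against 1.78 CPM, adjusted p = 0.00133). Cd40lg, the ligand of CD40, averaged 0.0178 CPM or less in each group and was not tested.

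All 18 listed genes of CD40 signalling through TRAF proteins and NF-kB were tested. None was called between genotypes at the end of OGD by edgeR, and after recovery 3 were higher in KO and 1 was lower, where 10.1% and 12% of all genes were. Traf1, an NF-kB target that binds CD40's signalling complex, averaged 8.80 CPM in KO_recovery against 2.55 CPM in WT_recovery (log2 difference 1.79 ± 0.33, adjusted p = 0.00147), while Nfkbia, the inhibitor of NF-kB, averaged 35.2 against 60.4 CPM (-0.78 ± 0.12, adjusted p = 0.000394). With recovery 7 rose and 5 fell in WT, and 7 rose and 6 fell in KO, where 26.9% and 29.9% of all genes did in WT and 29.3% and 29.6% in KO. The median log2 change was -0.01 in WT and 0.10 in KO. Nfkbie, another inhibitor of NF-kB, rose in both, by 1.14 ± 0.15 and 1.54 ± 0.15 on the log2 scale.

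Cd274 is a known target of interferon gamma through IRF1, and the gene of this factor moved against it. Irf1 rose from 25.3 to 67.5 CPM in WT (log2 change 1.42 ± 0.09, adjusted p = 9.52e-09) and from 26.0 to 95.2 CPM in KO (1.87 ± 0.09, adjusted p = 4.51e-10). Of the 15 listed genes from interferon gamma to PD-L1, all tested, 8 rose and 2 fell with recovery in WT (26.9% and 29.9% of all genes), and 9 rose and 2 fell in KO (29.3% and 29.6%). The median log2 change was 0.54 in WT and 0.69 in KO. After recovery 5 were higher in KO than in WT and 2 were lower, against 10.1% and 12% of all genes. Among the higher were Irf8 (158 CPM in KO_recovery against 93.5 CPM in WT_recovery, adjusted p = 6.47e-05) and Stat2 (107 against 71.1 CPM, adjusted p = 0.0107). Ciita, the activator of the MHC class II genes, was one of the lower (0.804 against 2.78 CPM, adjusted p = 0.00127). In the annotation, Ciita shares exonic bases with Dexi, and Irf1 with Gm17334.

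MHC class II molecules carry the peptide that the costimulators act beside, and 10 of 12 listed genes were tested. In WT 8 rose with recovery and none fell (26.9% and 29.9% of all genes), and in KO 4 rose and 4 fell (29.3% and 29.6%). The median log2 change was 1.70 in WT and 0.09 in KO. H2-Aa, H2-Ab1 and H2-Eb1, which encode classical class II chains, averaged 84.3, 60.5 and 45.3 CPM in WT_recovery and 4.09, 3.56 and 1.16 CPM in KO_recovery (adjusted p = 1.56e-05, 8.19e-07 and 1.74e-06). Their direction between genotypes after recovery was thus opposite to that of Cd80 and Cd86, which were higher in KO. These lists were described by their counts only.

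Other checkpoint pairs and leukocyte adhesion pairs gave mixed counts. Of 13 checkpoint genes tested from 17 listed, 5 rose and 3 fell with recovery in WT, and 5 rose and 5 fell in KO, with median log2 changes of -0.04 and 0.18. Pilra, an inhibitory receptor of myeloid cells, rose 4.90-fold in WT and 4.38-fold in KO. Pvr, a ligand of TIGIT, fell by 1.14 ± 0.11 on the log2 scale in WT. Its mean went from 28.7 to 13.2 CPM in WT and from 30.9 to 13.9 CPM in KO. Of 13 adhesion genes tested from 15 listed, 5 rose and 4 fell in each genotype, with medians of 0.31 in WT and 0.03 in KO. Over all genes, 26.9% rose and 29.9% fell in WT, and 29.3% rose and 29.6% fell in KO. Itgam, an integrin chain of the complement receptor that also binds ICAM-1, rose from 285 to 1340 CPM in WT and from 383 to 2070 CPM in KO. Between genotypes after recovery, 2 of the 13 adhesion genes were higher in KO and 3 lower, where 10.1% and 12% of all genes were. Itgal, the chain of LFA-1 that binds ICAM-1, was lower in KO_recovery than in WT_recovery (99.6 against 210 CPM, adjusted p = 0.00937 by edgeR). Itgam was higher (2070 against 1340 CPM, adjusted p = 0.0446 by edgeR), with overlap of libraries.

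Markers of other cell types that can carry these ligands moved with the groups. The summed level of 13 dendritic cell markers was 33.2 to 49.6 CPM in WT, 25.7 to 33.3 CPM in KO, 134 to 186 CPM in WT_recovery and 46.5 to 66.4 CPM in KO_recovery, with 12, 13, 12 and 13 of the 13 above 0. Of the defining markers, Flt3 was at 0 in WT_recovery, whereas Ccr7 averaged 2.39 CPM there and at most 0.0395 CPM in the other groups, and Ccl22 39.7 CPM against at most 2.02 CPM. Other markers of the list had higher means in KO_recovery: Clec9a, Batf3, Itgae, Xcr1 and Zbtb46 averaged 16.5, 7.38, 5.71, 0.832 and 3.89 CPM in WT_recovery and 21.8, 9.23, 8.40, 1.01 and 4.50 CPM in KO_recovery. Of the members, Pdcd1lg2 and Icosl had their highest means in WT_recovery, and Cd80, Cd86 and Cd83 did not. The part of dendritic cells in the members' values was not tested.

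The sum of 9 border macrophage markers was 887 to 917 CPM in WT, 912 to 1050 in KO, 1510 to 2170 in WT_recovery and 1890 to 2360 in KO_recovery, with all 9 above 0 in every group. Mrc1 made up 82.9%, 80.0%, 50.4% and 44.4% of it in the same order. With recovery 8 of the 9 had a positive log2 change in each genotype, whereas mean Lyve1 went from 0.502 to 0.0874 CPM in WT and from 0.555 to 0.266 CPM in KO. The sum of 7 monocyte markers was 104 to 178, 58.3 to 99.4, 504 to 824 and 1090 to 1300 CPM in the same order of groups, mostly from Fn1, with Plac8 at 0 in all groups but KO_recovery. That of 9 neutrophil markers was 83.6 to 94.3, 77.8 to 82.9, 402 to 535 and 718 to 863 CPM, with Ly6g at 0 throughout. Mmp8 made up 92.1% of it in WT_recovery and 92.6% in KO_recovery. Mean levels of Mmp8 and S100a8 were higher after recovery in both genotypes, whereas those of Csf3r and Cxcr2 were lower. Csf3r went from 60.8 to 28.1 CPM in WT and from 59.2 to 51.0 CPM in KO. Cxcr2 went from 1.04 to 0.121 CPM in WT and from 0.703 to 0.184 CPM in KO. The sum of 8 endothelial markers was 9.53 to 11.2, 10.2 to 11.8, 64.6 to 82.0 and 120 to 130 CPM, mostly from Flt1, with Cldn5 at 0 in all groups but KO_recovery. These sums, though not every marker in them, were higher after recovery in both genotypes, as were Cd80, Pdcd1lg2, Icam1 and Cd276. Their part in the members' values was not tested. The 11 markers of T and NK cells summed to 3.70 to 7.60 CPM over all 12 libraries, with Cd8a, Nkg7 and Gzma at 0, and 96.7% to 98.9% of the sum of 8 B cell markers came from Cd22, which microglia also express.

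The other neural lists also differed between groups. The sum of 10 astrocyte markers was 119 to 182 CPM in WT, 39.4 to 65.8 in KO, 240 to 271 in WT_recovery and 60.3 to 117 in KO_recovery, all 10 above 0 in each. Neuronal markers (9 genes) summed to 24.3 to 36.3, 7.85 to 13.8, 78.2 to 93.5 and 16.2 to 26.2 CPM, and those of the oligodendrocyte lineage (8 genes) to 56.0 to 60.1, 60.9 to 76.5, 186 to 225 and 129 to 157 CPM. Astrocyte and neuronal sums, though not every marker in them, were thus lower in KO than in WT at both times. At the end of OGD, 0 of 10 astrocyte and 1 of 8 tested neuronal markers had a positive log2 change in KO. After recovery 2 of 10 and 1 of 8 did, among them Aldh1l1 (47.3 CPM in KO_recovery against 39.1 CPM in WT_recovery). The means of Pdcd1lg2 and Icosl were also lower in KO at both times, and the part of these cell types was not tested.

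**Figure D5:**
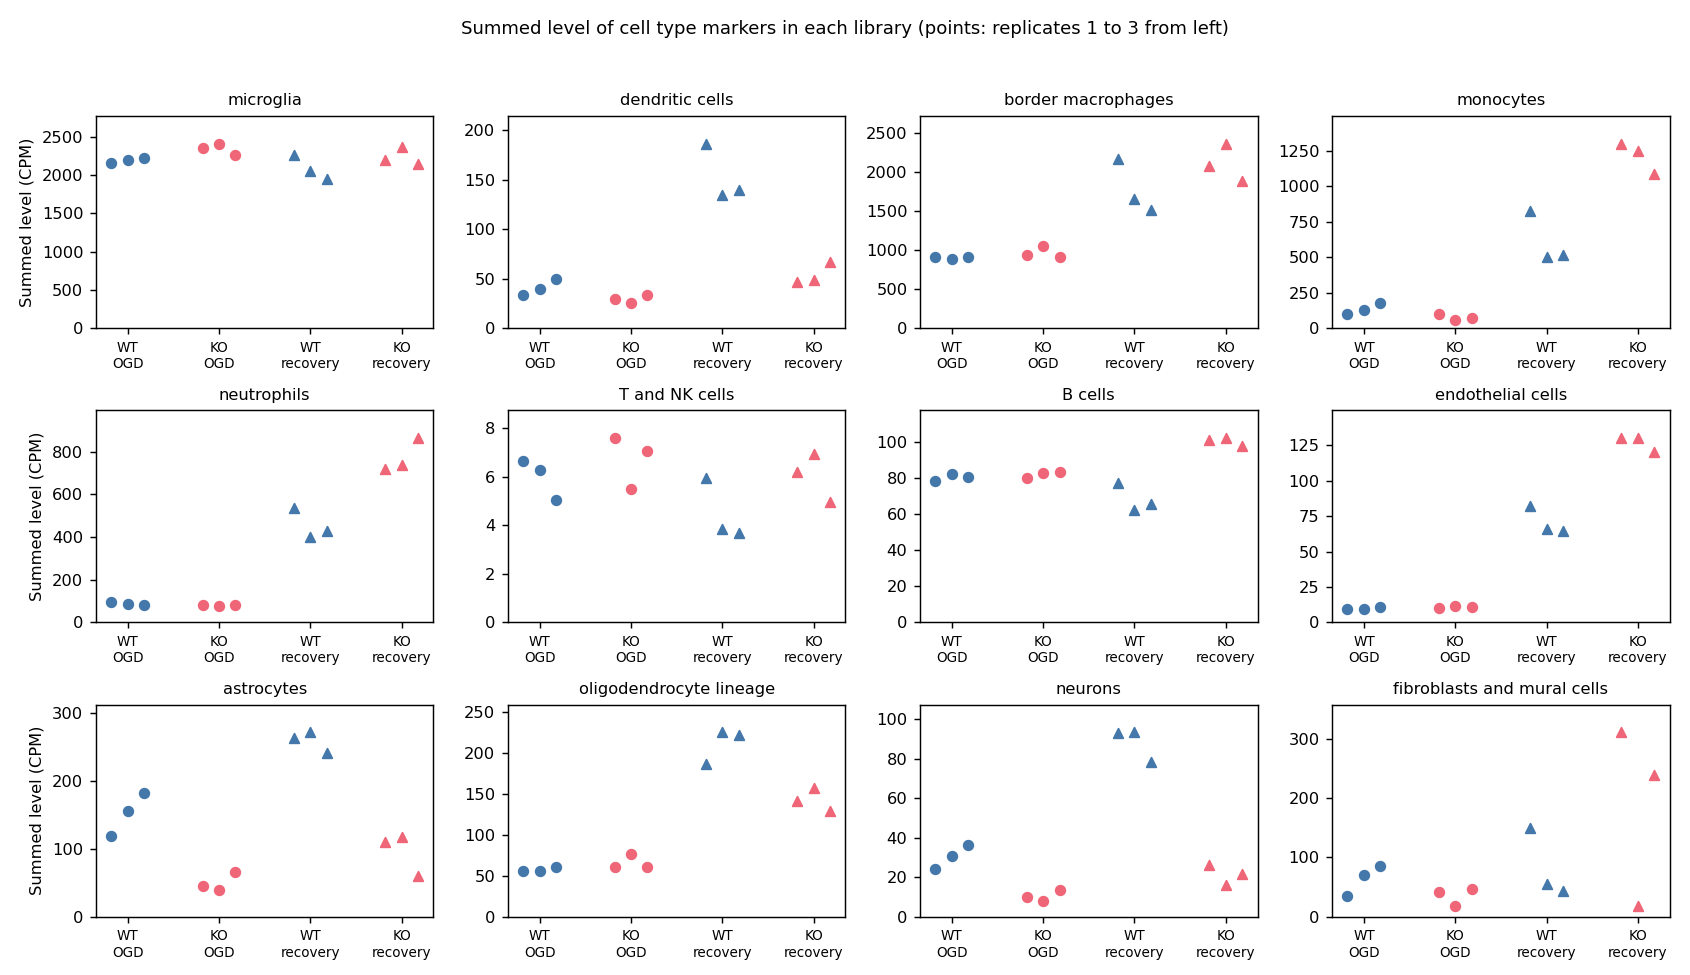
Summed level (CPM, axis from 0) of 12 lists of cell type markers in each of the 12 libraries, with WT in blue, KO in red, circles at the end of OGD and triangles after recovery. The microglial sums lie between 1950 and 2410 in all libraries, the dendritic cell sums are highest in WT_recovery (134 to 186), and the fibroblast and mural sums split the KO_recovery libraries.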

How the data were processed

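RNA of 12 samples (4 groups of 3) was sequenced. The authors deposited counts of reads for each gene, as whole numbers without scaling. HISAT2, featureCounts and the build GRCm38 are named in the submitters' processing notes, per the labels. Versions, annotation and options of the counting are not given in the sources used here. The library kit was for stranded total RNA per the labels' protocols, whereas the molecule field named polyA RNA. Of 55421 gene identifiers, 55240 were matched to GENCODE M21 symbols with the version ignored.

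Counts were filtered with filterByExpr, scaled by TMM and tested with edgeR 4.0.16 (quasi-likelihood, robust, 1 mean per group over all 12 libraries, R 4.3.3). P-values were adjusted by the Benjamini-Hochberg method over 18842 genes and called below 0.05. CPM used TMM-scaled library sizes, and FPKM divided them by the exon-union length in GENCODE M21 (GRCm38). The fits were tested on simulated data. Replicates of a group differed beyond sampling noise (chi-square per degree of freedom 6.66 to 60.2), so none was merged. Totals of 9885259 to 45347118 counts set the precision, and count intervals would cover counting error only.

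Named were the 10 members, up to 3 called genes of largest fold change from each of 7 pathway lists in each comparison, the 2 genes most like each member, and Slc2a5 and Xist. Cd28, Ctla4, Icos, Pdcd1, Cd40lg and single cell type markers were named outside this rule, after their values were seen. Some genes that the rule names are not reported here. Members and lists were chosen with earlier results of these data known. In particular, the dendritic cell and class II lists cannot count as independent. Alternatives were DESeq2's size factors in edgeR, DESeq2 1.42.0 itself, no filter on low counts, only the libraries compared, a replicate block, thinning to 9885259 counts, and leaving out each library. The fit without KO_recovery replicates 1 and 3 together was added after the data were seen. Protein sequences of the members were not analysed here.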

Additional observations from a re-analysis of the deposited data

Results flagged for a closer look

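By edgeR's interaction test over all 4 groups of 3 libraries, the recovery change differed between genotypes for 8 of the named genes. None of the 10 members was called, where 2.89% of all genes were called higher and 2.36% lower. Genes of the pathway lists were named because they were called, and this test was among those used to name them. The 8 were thus picked by this result, whereas the members were chosen by name, so the counts cannot be set against each other. Values are the log2 change with recovery in KO less that in WT, with its SE. Of the class II genes, H2-Eb1 was at -5.30 ± 0.43 (adjusted p = 7.15e-05), H2-Aa at -4.41 ± 0.43 (adjusted p = 0.000476) and H2-Ab1 at -4.09 ± 0.33 (adjusted p = 4.62e-05): they rose in WT and fell in KO. Tnfrsf9 was at -2.69 ± 0.67 (adjusted p = 0.0318), with an average of 0.212 CPM in KO_recovery, while Tnfsf8 was at 1.70 ± 0.36 (adjusted p = 0.0141). Irf8, a transcription factor of myeloid cells, was at 0.79 ± 0.13 (adjusted p = 0.00332). Socs3, an inhibitor of cytokine signalling, was at 0.55 ± 0.12 (adjusted p = 0.0195). Nfkbia was at -0.71 ± 0.17 (adjusted p = 0.0242). Each of these values uses the WT_recovery libraries, which also stood apart in Xist. For Tnfsf8 the genotypes differed at the end of OGD (0.505 CPM in KO against 1.77 CPM in WT, adjusted p = 0.00112 by edgeR). After recovery it averaged 4.90 CPM in KO_recovery and 5.22 CPM in WT_recovery.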

How the results depend on the processing

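Over 940 refits of a member's log2 change, 869 kept both the direction and the side of the threshold, 15 lost the call, 30 gained one and 26 changed sign. None of the 14 recovery calls in WT or KO was lost in any alternative except that of Icosl in KO. For KO against WT at the end of OGD, 0 members were called with DESeq2's size factors and 0 after thinning, and 0 to 1 without single libraries. All genes called there numbered 1411, but 2148 with no filter, 676 after thinning and 524 to 1742 without single libraries. For KO against WT after recovery, 2 members were called, but 4 by DESeq2, 6 with no filter, 1 with only the libraries compared, 5 without KO_recovery replicates 1 and 3 together and 1 to 5 without single libraries. All genes called numbered 4175, but 2756 with only the libraries compared and 2653 to 5279 without single libraries. In the interaction, 0 members were called, but 2 with no filter, 2 without KO_recovery replicates 1 and 3 together and 0 to 4 without single libraries. All genes called numbered 989, but 1517 by DESeq2, 1980 with no filter, 594 after thinning and 479 to 1770 without single libraries.

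Signs changed only for log2 values that were not called. Without single libraries, KO against WT at the end of OGD ranged from -0.32 to 0.18 for Cd40, -0.10 to 0.01 for Icam1 and -0.06 to 0.20 for Havcr2, and after recovery from -0.05 to 1.12 for Cd40. The recovery change ranged from -0.71 to 0.12 for Cd40 and -0.02 to 0.07 for Havcr2 in WT, and from -0.08 to 0.80 for Cd40 in KO. The interaction ranged from -0.03 to 0.29 for Cd274, -0.35 to 0.09 for Pdcd1lg2 and -0.18 to 0.05 for Cd276. The recovery change of Havcr2 in WT was -0.04 with no filter and -0.01 without KO_recovery replicates 1 and 3 together, a fit that also gave an interaction of -0.07 for Cd274. The interaction of Pdcd1lg2 was 0.19 after thinning. The cause of these changes was not tested.

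No pairing by replicate number was seen: deviations of same-numbered libraries correlated by -0.217 to 0.138 over 18 pairs. Differently numbered libraries of different groups gave -0.2192 to 0.2145. With 3 libraries in each group, this cannot show that no pairing existed. With the replicate number as a block, the interaction called 657 genes, and the number of members called was 1, 2, 7, 7 and 0 in the 5 comparisons, as without it. Depth limits Cd40 and Pdcd1lg2 most, with 3 to 37 and 42 to 114 counts a library.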
